A study of Homo sapiens with 14 samples.

Results

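The MHC class I and antigen processing genes were examined in mixtures of 2 human cell lines. They are the heavy chains HLA-B, HLA-C and HLA-E, the light chain B2M, the peptide transporter subunits TAP1 and TAP2, the inducible proteasome subunits PSMB8 and PSMB9, and the regulator NLRC5. These 9 genes, of 58440 genes in the files, were chosen by name, with earlier results of these data known. All 9 passed the filter on low counts in every test below. HEK-293T cells derive from embryonic kidney and resemble epithelium in culture, whereas Jurkat cells derive from a T cell leukemia and grow unattached. Cells of both lines were mixed at 100%, 80%, 60%, 50%, 40%, 20% and 0% HEK cells, 1000000 cells in each mixture, and RNA-seq was carried out on 2 libraries of each of these 7 conditions. ERCC spike-ins, synthetic RNAs of known amount, were put into the mRNA of each library. No treatment separated the groups, and both lines were grown with serum and antibiotics, HEK-293T in DMEM and Jurkat in RPMI. Per the labels, replicates within a condition are technical, so p-values measure only the spread between these libraries.

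MHC class I molecules show peptides from inside the cell to CD8+ T cells. Peptides are cut from proteins by the proteasome, carried into the endoplasmic reticulum by the transporter of TAP1 and TAP2, trimmed there, and loaded onto a heavy chain paired with B2M. Interferon gamma induces many of these genes, replacing constitutive proteasome subunits with inducible ones, and NLRC5 binds a conserved module in class I promoters together with RFX, CREB/ATF and NF-Y factors.

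In GENCODE 44 on GRCh38, HLA-E (chr6:30489509-30494194, plus strand), HLA-C (chr6:31268749-31272130, minus strand) and HLA-B (chr6:31353872-31367067, minus strand) lie in the MHC region. The same region holds TAP2 (chr6:32821833-32838739, minus strand), PSMB8 (chr6:32840717-32844679, minus strand), TAP1 (chr6:32845209-32853816, minus strand) and PSMB9 (chr6:32844136-32859851, plus strand) as neighbours. B2M (chr15:44711358-44718851, plus strand) and NLRC5 (chr16:56989485-57083531, plus strand) lie outside it.

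Promoter sequences, from 250 bases before to 50 bases after the gene start, were taken from RefSeq (GRCh38.p14) for the 7 genes with an entry, which leaves HLA-E and NLRC5 without one. Motifs were searched on both strands in these windows and in all 35116 promoters of the table. CCAAT, the core of NF-Y sites, is found in 34.6% of all promoters. TGACG, the core of CREB/ATF sites, is found in 24.6%. GGGCGG, known from Sp1 sites, is found in 45.0%, and GAAANNGAA, of interferon response elements, in 8.11%. GGGANTTCC, an exact pattern that covers only part of the NF-kappaB sites, is found in 1.85%. HLA-B, HLA-C and B2M are shown first because they carry TGACG and, closer to the start, ATTGG, the reverse complement of CCAAT. Capitals mark every motif match.
HLA-B, chr6:31357130-31357429, minus strand: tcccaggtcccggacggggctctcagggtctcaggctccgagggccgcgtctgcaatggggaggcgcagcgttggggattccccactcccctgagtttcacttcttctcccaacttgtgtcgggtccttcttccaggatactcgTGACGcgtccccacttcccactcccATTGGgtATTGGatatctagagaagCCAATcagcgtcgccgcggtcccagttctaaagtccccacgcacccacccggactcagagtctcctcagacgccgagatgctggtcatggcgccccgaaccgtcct
HLA-C, chr6:31272043-31272342, minus strand: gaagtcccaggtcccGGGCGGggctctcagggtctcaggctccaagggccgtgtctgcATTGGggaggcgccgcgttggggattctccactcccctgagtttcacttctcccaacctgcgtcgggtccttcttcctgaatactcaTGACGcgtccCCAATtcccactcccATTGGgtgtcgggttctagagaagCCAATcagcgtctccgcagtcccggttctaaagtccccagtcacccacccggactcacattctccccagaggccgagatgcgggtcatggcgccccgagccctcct
B2M, chr15:44711267-44711566, plus strand: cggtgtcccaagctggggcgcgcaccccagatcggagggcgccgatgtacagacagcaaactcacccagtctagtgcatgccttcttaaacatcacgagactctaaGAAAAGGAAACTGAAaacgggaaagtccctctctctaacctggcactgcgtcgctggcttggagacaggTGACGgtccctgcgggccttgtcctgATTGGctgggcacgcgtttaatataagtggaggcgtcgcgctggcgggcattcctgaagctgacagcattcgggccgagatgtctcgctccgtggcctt
TGACG began at position -106 from the start in HLA-B, -105 in HLA-C and -75 in B2M. ATTGG followed 25 bases later in HLA-B, 25 in HLA-C and 26 in B2M. A pair in this order with starts 20 to 30 bases apart, a rule set after these promoters were seen, was found in 85 of 35116 promoters (0.242%), and in none of the windows of TAP1, TAP2, PSMB8 and PSMB9. B2M also held GAAANNGAA in 2 overlapping matches, and no member window held GGGANTTCC. That pattern is exact and misses runs close to it, such as ggggattcccc in HLA-B, gggaaagtccc in B2M and gggactttcc in TAP1. Whether these windows hold NF-kappaB sites of another form was not tested. A match is a run of letters and not a measured binding site.

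TAP1 and PSMB9 are shown because they face away from each other with RefSeq starts 488 bases apart, and because their levels differed between the lines in unlike ways. The TAP1 entry is the one with the start nearer to PSMB9.
TAP1, chr6:32853655-32853954, minus strand: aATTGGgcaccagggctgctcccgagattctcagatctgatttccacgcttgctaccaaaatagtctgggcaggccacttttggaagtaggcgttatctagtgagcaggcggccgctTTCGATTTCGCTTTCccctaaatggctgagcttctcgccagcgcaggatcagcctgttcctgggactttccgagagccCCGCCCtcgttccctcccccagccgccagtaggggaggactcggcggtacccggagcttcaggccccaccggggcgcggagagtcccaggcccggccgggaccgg
PSMB9, chr6:32853942-32854241, plus strand: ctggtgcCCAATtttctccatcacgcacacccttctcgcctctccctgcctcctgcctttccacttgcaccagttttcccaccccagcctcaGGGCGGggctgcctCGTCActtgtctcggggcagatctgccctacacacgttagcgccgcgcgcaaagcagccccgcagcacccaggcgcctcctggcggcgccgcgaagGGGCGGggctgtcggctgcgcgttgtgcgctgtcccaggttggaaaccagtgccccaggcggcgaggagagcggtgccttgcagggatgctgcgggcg
Both windows share 13 bases, and the CCAAT of PSMB9 is the same stretch as the ATTGG at the far end of the TAP1 window. The TAP1 window held 2 overlapping matches of GAAANNGAA and 1 of GGGCGG, all as the reverse complement. The PSMB9 window held 2 of GGGCGG, and 1 of TGACG as the reverse complement. The GAAANNGAA matches of TAP1 lie in the stretch between both starts, which the PSMB9 window covers only in part. Their absence from that window therefore sets no difference between the genes. GAAANNGAA was also found in the TAP2 window and in an entry of PSMB8.

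The 14 libraries held from 4468822 to 28303668 gene counts (median 13505082), and 3 counts, the floor used here, stood for 0.106 to 0.671 CPM. CPM are counts scaled to 1000000 gene counts per library, with spike-ins left out. For each spike-in count the pure HEK libraries held 147 and 97.3 gene counts, against 12.1 and 12.3 for pure Jurkat. In the mixtures they were 46.6 and 123 at 80% HEK, 29.9 and 56.1 at 60% HEK and 44.6 and 25.5 at 50% HEK. At 40% HEK they were 44.8 and 34.3, and at 20% HEK 17.4 and 28.0, so that libraries of a condition differed on this scale. File names fell into groups of 8 and 6 libraries. Both pure Jurkat libraries were in the first and both pure HEK libraries in the second, and line and file-name group therefore cannot be told apart between the pure lines. The 8 T cell markers summed to 2330 and 2749 CPM in Jurkat and to 5.50 and 2.57 CPM in HEK, and the 5 HEK markers to 188 and 206 CPM in HEK and 31.9 and 18.6 CPM in Jurkat. The second pure Jurkat library stood apart from the first for several genes named below, among them HLA-E. The pair at 50% HEK differed most, at 147 for chi-square over degrees of freedom against 20.7 to 62.8 in the other pairs.

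The first question was how the machinery differs between the lines. The inducible subunits were close to the floor in HEK, where NLRC5 held 15 and 17 counts, and these genes were well above it in Jurkat. On CPM, B2M was several times higher in Jurkat, and HLA-B, HLA-C and TAP1 stood within a factor of 1.5. Between the pure lines, edgeR's quasi-likelihood test called 5 of 9 members, HLA-E, B2M, PSMB8, PSMB9 and NLRC5, all higher in Jurkat on the TMM scale, although HLA-E and B2M were higher in HEK per spike-in. Among all 15794 genes tested, 43.2% were called in either direction, 19.0% higher in Jurkat and 24.2% higher in HEK. The median log2 difference was 1.63 over the members and -0.07 over all genes. Since the members were chosen with earlier results known, these counts and medians only describe them. No member was called higher in HEK. At an unadjusted edgeR p under 0.05 there were 6 higher in Jurkat and 0 higher in HEK. The share of all genes at that unadjusted threshold was not taken, so these counts are no result about the members. DESeq2 called the same 5. On CPM, the libraries of the lines did not overlap for any member, also where the ratio of Jurkat to HEK was only 1.07, as for TAP1. With 2 against 2 libraries and no share over all genes beside it, this is a description and not a result about the members.

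**Figure D1:**
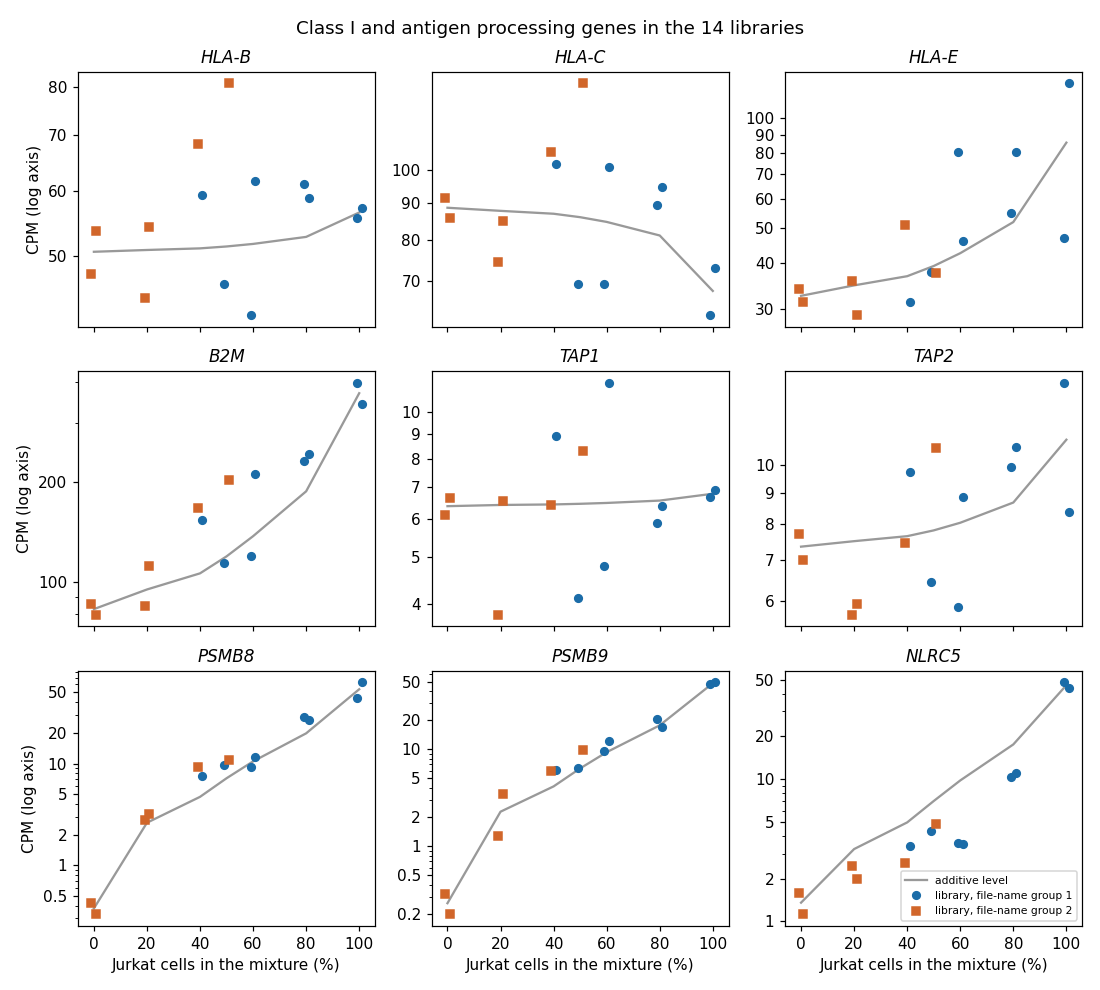
CPM (log axis, a separate range in each panel) of each member in the 14 libraries against the percentage of Jurkat cells, with symbols for the file-name groups and a grey line for the level that additive mixing of the pure libraries gives. PSMB8 and PSMB9 climb from under 0.5 CPM to over 44 CPM, while HLA-B, HLA-C and TAP1 scatter around a nearly flat line and NLRC5 lies under its line in every mixture.

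PSMB9 encodes the inducible subunit with the caspase-like position of the proteasome. It was at 0.317 and 0.198 CPM in pure HEK, 3 counts in each library, and at 47.0 and 49.2 CPM in pure Jurkat. Pooled over libraries, 6 counts against 515 gave a ratio of Jurkat to HEK of 198 (95% interval 90.3 to 542, counting error only). The edgeR log2 difference was 7.75 (SE 0.33, adjusted p = 0.00064).

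PSMB8, the inducible subunit at the chymotrypsin-like position, stood at 0.42 and 0.33 CPM in HEK and at 44.5 and 62.9 CPM in Jurkat. The 9 counts in HEK against 589 in Jurkat gave a ratio of 151 (79.0 to 332). The log2 difference was 7.36 (SE 0.38, edgeR adjusted p = 0.000643). Beside these few counts, the T cell markers held from 1 count (CD28) to 32 counts (LCK) in the pooled HEK libraries, and the part of stray Jurkat reads in the HEK values was not tested. For CD3D the ratio was 677 and for CD3E 196.

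NLRC5, the class I transactivator, was measured at 1.59 and 1.12 CPM in HEK and at 48.1 and 43.7 CPM in Jurkat. Its ratio was 35.0 (24.5 to 51.8, from 32 against 486 counts), and its log2 difference 5.32 (SE 0.29, edgeR adjusted p = 0.000643). These 3 genes were the members furthest apart between the lines, and the only members higher in Jurkat on the scale of the spike-ins as well.

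B2M, the light chain shared by class I molecules, was at 86.1 and 79.6 CPM in HEK and at 397 and 343 CPM in Jurkat. The log2 difference was 2.38 (SE 0.21, edgeR adjusted p = 0.00142) on the TMM scale and -1.18 on the spike-in scale, where HEK was higher. On plain CPM, without the TMM factors, the Jurkat libraries held 4.46 times the B2M of the HEK libraries.

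Among the heavy chains, HLA-E, a class I molecule known as a ligand of NKG2A receptors, was at 33.9 and 31.2 CPM in HEK and at 46.9 and 124 CPM in Jurkat. The first pure Jurkat library lay closer to HEK than the second did. The log2 difference was 1.63 (SE 0.49, edgeR adjusted p = 0.0456), and it was -1.93 per spike-in. It was 0.73 (edgeR adjusted p = 0.0604) without the second pure Jurkat library and 2.17 (edgeR adjusted p = 0.00548) without the first. Without the first or the second pure HEK library the adjusted p was 0.135 and 0.152, so that the call rested on each of 3 libraries. HLA-B, which presents peptides to CD8+ T cells, was at 47.6 and 53.6 CPM in HEK and at 55.7 and 57.2 CPM in Jurkat, a log2 difference of 0.38 (95% interval -0.13 to 0.89, edgeR adjusted p = 0.18). HLA-C, of the same class, stood at 91.5 and 85.9 CPM in HEK and at 62.6 and 72.9 CPM in Jurkat, a log2 difference of -0.16 (-0.68 to 0.36, edgeR adjusted p = 0.569). Neither passed the test, and both intervals stay inside a 2-fold difference.

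Reads of the HLA genes fit several paralogs, and none of the 14 expected counts of HLA-B, HLA-C or HLA-E was a whole number within a tolerance of 0.005. The levels of the heavy chains are therefore uncertain, and how the division of reads moved them was not tested. By the same tolerance NLRC5 and PSMB8 had whole counts in all 14 libraries.

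TAP1, a subunit of the peptide transporter, stood at 6.11 and 6.65 CPM in HEK and at 6.66 and 6.89 CPM in Jurkat, a log2 difference of 0.32 (-0.31 to 0.95, edgeR adjusted p = 0.348). TAP2, its partner, was at 7.72 and 6.99 CPM in HEK and at 13.7 and 8.38 CPM in Jurkat. Its log2 difference of 0.80 (0.01 to 1.58) did not pass (adjusted p = 0.0917), but did with all 14 libraries in 1 edgeR fit (adjusted p = 0.0473) and without the second pure Jurkat library (1.10, adjusted p = 0.0324). It was 0.43 (edgeR adjusted p = 0.222) without the first pure Jurkat library, and DESeq2 gave an adjusted p of 0.283. TAP1 and PSMB9 thus sit 488 bases apart from start to start and had CPM ratios of Jurkat to HEK of 1.07 and 187. Exons of both genes overlap genes on the opposite strand, over 14.2% of the exonic bases of TAP1 and 4.16% of those of PSMB9. The same holds for 17.3% of those of PSMB8 and 14.8% of those of HLA-B. Exons of genes on the same strand overlap 32.7% of the exonic bases of HLA-B, 19.5% of those of TAP2 and 5.21% of those of PSMB9. Whether the counting used strand is not given in the sources used here, and how these overlaps moved the counts was not tested.

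Per length, the order of the members differed between the lines. In HEK the mean TPM were 122 for B2M, 101 for HLA-C, 65.5 for HLA-B, 12.6 for HLA-E, 4.70 for TAP1, 1.67 for NLRC5, 1.3 for TAP2, 0.470 for PSMB8 and 0.354 for PSMB9. Only PSMB8 and PSMB9 overlapped between libraries among neighbours in that order. In Jurkat B2M led at 615 TPM, followed by HLA-C at 88.6, HLA-B at 82.1, NLRC5 at 76.4, PSMB8 at 64.0, PSMB9 at 48.2, HLA-E at 35.1, TAP1 at 4.74 and TAP2 at 2.09. There HLA-C, HLA-B and NLRC5 each overlapped with the next in the order, as did PSMB9 and HLA-E, whereas PSMB8 (53.5 and 74.4 TPM) and PSMB9 (49.9 and 46.4 TPM) did not. By TPM, NLRC5 stood beside the heavy chains in Jurkat and beside the transporter in HEK. Scaling by length may not apply to reads primed from the poly-A tail, and mean CPM gave another order. On CPM, TAP2 stood above TAP1 in both lines. HLA-C (88.7 CPM) stood above B2M (82.9 CPM) in HEK. In Jurkat HLA-E (85.5 CPM) came next after B2M, and NLRC5 (45.9 CPM) stood below PSMB8 (53.7 CPM) and PSMB9 (48.1 CPM). The libraries overlapped in these CPM comparisons other than that of TAP2 and TAP1, and B2M in Jurkat.

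The scale decides what is compared. TMM and CPM relate a gene to the RNA of its library. The spike-ins relate it to the mixture of 1000000 cells only as far as each library received the same amount of them. On the spike-in scale the median of all genes moved from -0.07 to -3.61 (log2), since the HEK libraries held 10.0 times the gene counts per spike-in. Over all genes 509 were called higher in Jurkat and 14616 higher in HEK on that scale, against 3002 and 3825 with TMM. There all 9 members were called by edgeR, with PSMB8 (3.92), PSMB9 (4.33) and NLRC5 (1.78) higher in Jurkat and HLA-C (-3.72), TAP1 (-3.20), HLA-B (-3.15), TAP2 (-2.75), HLA-E (-1.93) and B2M (-1.18) higher in HEK. In counts per 1000 spike-in counts, B2M was at 10.2 ± 3.5 (SD, n = 2) in HEK and 4.51 ± 0.409 in Jurkat. HLA-C was at 10.9 ± 3.62 in HEK and 0.828 ± 0.101 in Jurkat. PSMB9 went the other way, at 0.0330 ± 0.0195 in HEK and 0.587 ± 0.0271 in Jurkat. Relative to the median of all genes on that scale, the estimate of every member but HLA-C lay on the Jurkat side. This centres the values much as TMM does and is no further test. HLA-B (SE 0.55) and TAP1 (SE 0.62) lay close to that median, and HLA-B, TAP1 and TAP2 were not called with TMM. An error in the amount of spike-in moves all members of a library together. By design each mixture held 1000000 cells, so this scale compares RNA per cell only as far as cell numbers and spike-in amounts held. Whether they did was not tested.

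**Figure D2:**
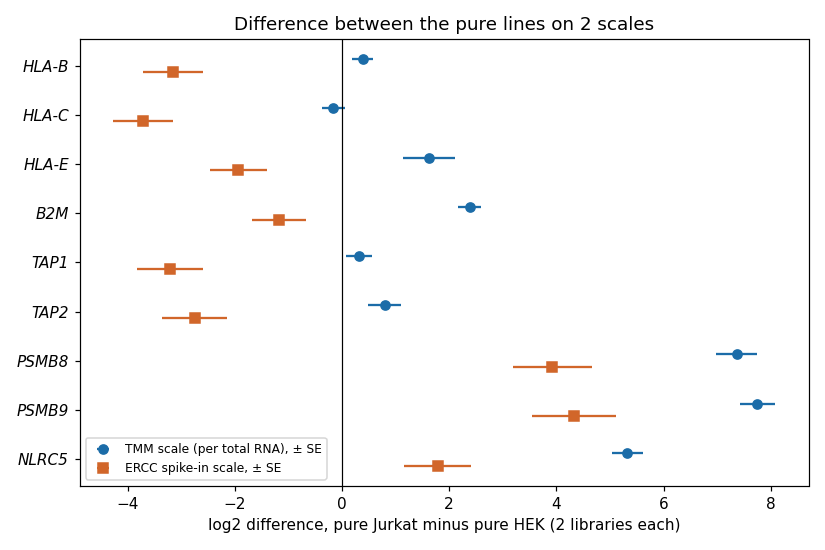
Log2 difference between pure Jurkat and pure HEK (points, ± SE, 2 libraries each) for the 9 members on the TMM scale and on the ERCC spike-in scale. The spike-in points lie to the left of the TMM points by about the same distance, and PSMB8, PSMB9 and NLRC5 stay right of 0 on both scales.

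The constitutive partners of the inducible subunits allow ratios within a library, which no scaling of libraries moves. PSMB8 made up 0.359% and 0.316% of the TPM of PSMB8 and PSMB5 in HEK, and 43.3% and 50.9% in Jurkat. PSMB9 made up 0.133% and 0.0936% of the TPM of PSMB9 and PSMB6 in HEK, and 21.9% and 19.5% in Jurkat. At both positions the inducible form went from a trace in HEK to a large share in Jurkat. PSMB10, the inducible form at the trypsin-like position, made up 21.6% and 18.8% of the TPM of PSMB10 and PSMB7 in HEK, and 40.9% and 13.3% in Jurkat, where the libraries of the lines overlapped. The low share came from the second pure Jurkat library, in which PSMB7 stood at 336 CPM against 87.5 CPM in the first. Priming was from the poly-A tail, so that scaling by length may not apply, and on CPM the mean PSMB9 share in Jurkat was 31.7% rather than 20.7%.

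These shares grew with each step in Jurkat cells for PSMB8 and PSMB9. The mean share of PSMB8 was 2.64% at 80% HEK, 5.72% at 60%, 7.54% at 50%, 9.00% at 40% and 21.7% at 20%, with an SD of at most 2.2 over 2 libraries in these mixtures. The mean share of PSMB9 was 0.880%, 1.82%, 2.78%, 4.01% and 6.43% in the same order.

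**Figure D3:**
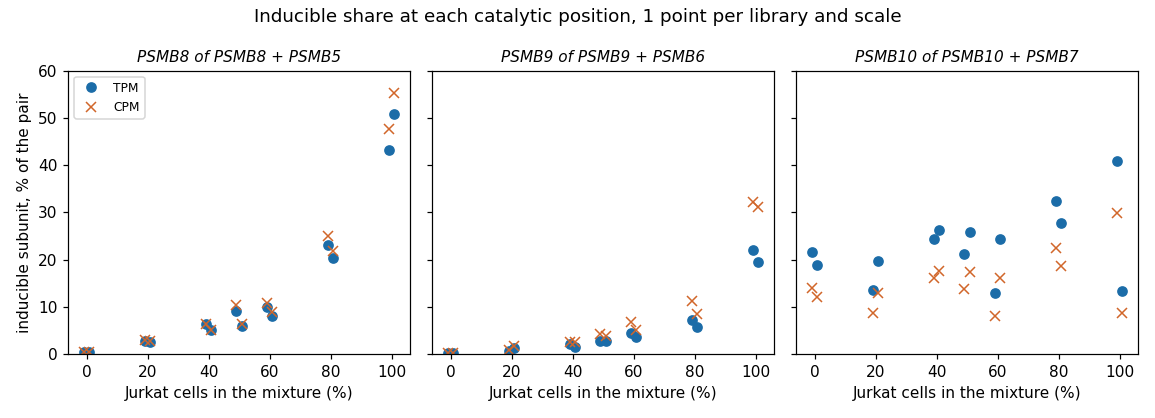
Share of the inducible subunit in each catalytic pair (percent of the pair's summed TPM or CPM) against the percentage of Jurkat cells, 1 point per library and scale. PSMB8 and PSMB9 climb to 43.3% or more and 19.5% or more of their pair's TPM in pure Jurkat, while PSMB10 is near 20% already in pure HEK and splits to 40.9% and 13.3% in pure Jurkat.

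Heavy chains were also set against the light chain. HLA-B made up 34.9% ± 1.44 (SD, n = 2) of the TPM of HLA-B and B2M in HEK and 11.9% ± 2.06 in Jurkat. HLA-C made up 45.2% ± 1.22 of its sum with B2M in HEK and 12.7% ± 2.4 in Jurkat. These ratios are descriptions without a test, and the libraries of the lines did not overlap in either. HLA-E made up 9.34% and 9.32% of its sum with B2M in HEK and 2.86% and 8.22% in Jurkat, with up to 14.8% in a library at 40% HEK. HLA-B against HLA-C stood at 39.4% ± 0.338 in HEK and 48.1% ± 0.491 in Jurkat, and between 38.0% and 40.8% in the means of the mixtures.

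The second question was whether members follow the Jurkat percentage in the 10 mixed libraries, which the test of the pure lines did not use. In edgeR's test of the slope, 4 of 9 members rose with Jurkat cells, B2M, PSMB8, PSMB9 and NLRC5, where 5.08% of 17242 genes rose. No member fell, and 0.528% of all genes did. At an unadjusted edgeR p under 0.05, 6 members rose and 0 fell, again without the share of all genes at that threshold beside it. DESeq2 called HLA-E in addition to the same 4. The median slope was 2.04 over the members and -0.01 over all genes, as log2 per 100 percentage points of Jurkat cells on the TMM scale. Here too the values describe members chosen with earlier results known.

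PSMB8 stood at 2.77 and 3.20 CPM with 80% HEK, 9.19 and 7.5 CPM with 60% HEK, 9.75 and 10.8 CPM with 50% HEK, 9.19 and 11.6 CPM with 40% HEK, and 28.6 and 26.7 CPM with 20% HEK. Its slope was 5.08 (SE 0.42, edgeR adjusted p = 1.20e-05). PSMB9 stood at 1.27 and 3.48 CPM with 80% HEK, 6.01 and 6.11 CPM with 60% HEK, 6.39 and 9.81 CPM with 50% HEK, 9.58 and 12.2 CPM with 40% HEK, and 20.5 and 16.9 CPM with 20% HEK. Already at 80% HEK the libraries lay above every pure HEK library for both subunits. The slope of PSMB9 was 4.99 (SE 0.57, edgeR adjusted p = 0.000106).

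NLRC5 stood at 2.44 and 1.98 CPM with 80% HEK, 2.58 and 3.40 CPM with 60% HEK, 4.31 and 4.88 CPM with 50% HEK, 3.55 and 3.51 CPM with 40% HEK, and 10.3 and 11.0 CPM with 20% HEK. Its means were 2.99, 4.59 and 3.53 CPM with 60%, 50% and 40% HEK cells, and its slope over all mixtures was 3.77 (SE 0.55, edgeR adjusted p = 0.00083). B2M stood at 84.9 and 111 CPM with 80% HEK, 167 and 153 CPM with 60% HEK, 114 and 203 CPM with 50% HEK, 119 and 212 CPM with 40% HEK, and 231 and 243 CPM with 20% HEK. Its slope was 2.04 (SE 0.42, edgeR adjusted p = 0.011), and the call was lost without the first library at 80% HEK (adjusted p = 0.0619) or either library at 20% HEK (0.0684 and 0.066). Per spike-in the slope of B2M turned to -1.12 and was not called.

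HLA-E ranged from 28.8 to 80.7 CPM over the mixed libraries, with a slope of 2.07 (SE 0.60, edgeR adjusted p = 0.07) that was -0.70 per spike-in. The pair at 40% HEK stood at 80.7 and 46.1 CPM. HLA-B ranged from 42.4 to 80.8 CPM, HLA-C from 69.2 to 132 CPM, TAP1 from 3.79 to 11.5 CPM and TAP2 from 5.69 to 10.7 CPM. None of these 4 passed, with slopes of 0.39, 0.28, 0.54 and 1.26 (edgeR adjusted p = 0.678, 0.798, 0.754 and 0.127), all of which turned negative per spike-in. The libraries of a condition differed widely for these genes, and those with 50% HEK cells stood at 46.3 and 80.8 CPM for HLA-B, at 69.3 and 132 CPM for HLA-C and at 4.11 and 8.30 CPM for TAP1.

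With the file-name group as a term the same 4 members rose. Within the 6 mixed libraries of the first group PSMB8 and PSMB9 passed, and within the 4 of the second group PSMB8 alone. The slope of B2M was 2.2 and 2.9 within these groups and that of NLRC5 4.47 and 2.68. On the spike-in scale, where the median slope of all genes was -3.06, 212 genes rose and 13485 fell against 876 and 91 with TMM. No member rose there and 3 fell, HLA-B (-2.75), HLA-C (-2.81) and TAP1 (-2.72). PSMB8 (2.05), PSMB9 (1.60) and NLRC5 (0.83) kept a positive slope there without passing.

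The third question was whether the members in mixtures lie where the pure lines place them. The share of RNA from HEK cells, fitted on genes outside the lists, was 95.5% and 96.1% with 80% HEK cells, 92.2% and 91.5% with 60% HEK cells, 84.4% and 90.1% with 50% HEK cells, 77.8% and 84.3% with 40% HEK cells, and 62.9% and 64.2% with 20% HEK cells. With these shares, additive mixing places 86.2% of the PSMB8 and 89.1% of the PSMB9 expected at 80% HEK with Jurkat cells. For B2M that share is 16.4% at 80% HEK and 71.9% at 20% HEK, and for HLA-C 3.25% and 30.5%.

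No member was called beyond 1.5-fold of additive mixing in edgeR's test over the 10 mixed libraries, and 0 were at an unadjusted p under 0.05. Over all genes 0.162% were called above and 0.0941% below. The NLRC5 estimate (log2 -0.77) lay beyond the threshold of 0.585 without passing. In simulated data this test called 22% of 2-fold changes. A lack of a call therefore does not place a member within 1.5-fold. No other tool was run for this test. Tested for any difference, 3 of 9 members passed, where 15.1% of 19129 genes did. The error of the pure means, shared by all mixtures, is not in that test. B2M (log2 0.36, edgeR adjusted p = 0.0463) and PSMB8 (0.46, adjusted p = 0.0188) lay above, and NLRC5 (-0.77, adjusted p = 0.00231) lay below. With RNA shares taken from the spike-ins in place of the fitted shares, the log2 difference was 0.88 for PSMB8, 0.73 for PSMB9 and -0.42 for NLRC5. Without the second pure Jurkat library it was 0.79 for PSMB8, without the first 0.29, and without the second pure HEK library 0.30. For PSMB9 it was 0.31, and 0.15 without the second pure HEK library.

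With the fitted shares, NLRC5 was under its additive level in 10 of 10 mixed libraries, by -1.66 to -0.24 on the log2 scale with a median of -0.72. At 40% HEK the libraries held 3.55 and 3.51 CPM where 11.3 and 8.36 CPM were expected. PSMB8 was above in 8 of 10 and PSMB9 in 6 of 10. The T cell markers, fitted in the same way, had a median of 0.67, from 0.94 for ZAP70 to -0.65 for PTPRC.

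**Figure D4:**
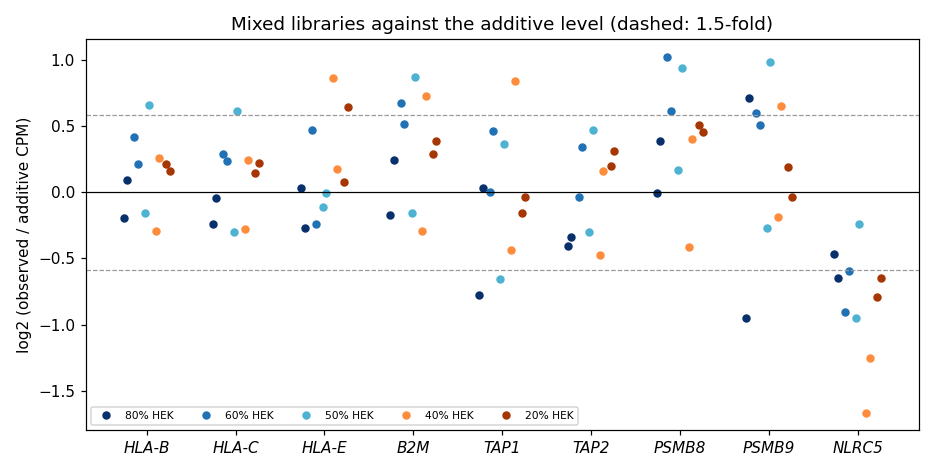
Log2 ratio of observed to additive CPM for each member in the 10 mixed libraries, coloured by the percentage of HEK cells, with dashed lines at 1.5-fold. Every NLRC5 point lies under 0, from -1.66 to -0.24, whereas each other member has points on both sides.

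Other genes of the pathway were listed beside the members, also with earlier results known. Of all genes tested, 19.0% were higher in Jurkat, 24.2% higher in HEK and 5.08% rose in the mixtures. With few genes in each list, the counts below are descriptions beside these shares. Among 7 genes of peptide loading and trimming, 4 were higher in Jurkat and 0 in HEK, with a median log2 difference of 1.25. TAPBPL, which edits peptides on class I molecules, was at 0.106 and 0.066 CPM in HEK, 1 count each, and at 6.27 and 6.93 CPM in Jurkat, a ratio of 81.9 (21.8 to 689, counting error). ERAP2, a peptide-trimming enzyme, was at 1.16 and 1.45 CPM in HEK and 92.6 and 71.2 CPM in Jurkat (log2 6.16, edgeR adjusted p = 0.00064). The related ERAP1 followed with a log2 difference of 3.33 (edgeR adjusted p = 0.000873), which was -0.17 per spike-in. All 3 also rose with Jurkat cells in the mixtures. CALR, CANX and PDIA3, chaperones of the endoplasmic reticulum, did not pass.

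Of the 6 other proteasome genes, 3 were higher in Jurkat and 1 in HEK, with a median of 1.36. PSME1 (2.82) and PSME2 (1.40), the subunits of the PA28 activator, and PSMB10 (1.42) were higher in Jurkat, and all 3 turned negative per spike-in. The constitutive PSMB5 was higher in HEK (-0.95, edgeR adjusted p = 0.0158). PSMB6 (-0.61) and PSMB7 (1.32) did not pass.

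Among 9 genes of interferon gamma signaling, 4 were higher in Jurkat and 1 in HEK, with a median of 0.77, and 1 rose in the mixtures. IRF1, a transcription factor of the interferon response, was at 6.96 and 5.94 CPM in HEK and 148 and 77.3 CPM in Jurkat (log2 4.35, edgeR adjusted p = 0.00161), but per spike-in the log2 difference was 0.79 and did not pass (adjusted p = 0.145). It rose in the mixtures as well, with a slope of 3.67 (edgeR adjusted p = 0.002) that was 0.76 per spike-in (adjusted p = 0.465). IRF2, a related factor, was at 6.24 and 2.24 CPM in HEK and 35.8 and 94.5 CPM in Jurkat (log2 4.21, edgeR adjusted p = 0.00903), and per spike-in it stood at 0.55 (adjusted p = 0.337). Its slope in the mixtures was 0.37 (edgeR adjusted p = 0.868), and -2.75 per spike-in. JAK2, a kinase of the receptor, followed at 1.48, and it was higher in HEK per spike-in (-2.05).

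Of 11 genes for factors of the class I promoter, 3 were higher in Jurkat and 0 in HEK, with a median of 0.47, beside 19.0% and 24.2% of all genes in these directions, and none rose or fell in the mixtures. They were NFKB1 (2.21), NFYA (1.34) and CREB1 (0.94), each negative per spike-in. RFX5 (0.57), RFXAP (-0.22) and RFXANK (-0.16), which form the RFX complex, did not pass.

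Among MHC class II genes, of 7 listed 5 passed the filter, and 3 were higher in HEK and 0 in Jurkat, with a median of -4.33. HLA-DPA1 was at 5.82 and 8.05 CPM in HEK and 0.448 and 0.161 CPM in Jurkat, a ratio of HEK to Jurkat of 25.6 (8.61 to 125, counting error). HLA-DMB had 119 counts in HEK and 1 in Jurkat, a ratio of 51.6 (9.09 to 2055). HLA-DPB1 had 62 counts in HEK and rounded to 0 in Jurkat, a ratio of HEK to Jurkat of at least 7.07 by counting error. With Jurkat set to a floor of 3 counts over the group, the ratio was 8.96. CIITA, the class II transactivator related to NLRC5, stood at a log2 difference of 0.17 (edgeR adjusted p = 0.696), against 5.32 for NLRC5. HLA-DMA, a subunit of the class II peptide editor, stood at 1.43 and did not pass either (edgeR adjusted p = 0.0614). No class II gene rose or fell in the mixtures by edgeR's test, with a median slope of -0.08. As a check on other cells, CD79A, of B cells, had 3 counts in HEK and 66 in Jurkat, and MS4A1, also of B cells, had 0 counts in HEK and 1 in Jurkat. The monocyte markers CD14, LYZ and CSF1R had 3, 1 and 13 counts in HEK and 1 count each in Jurkat.

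**Figure D5:**
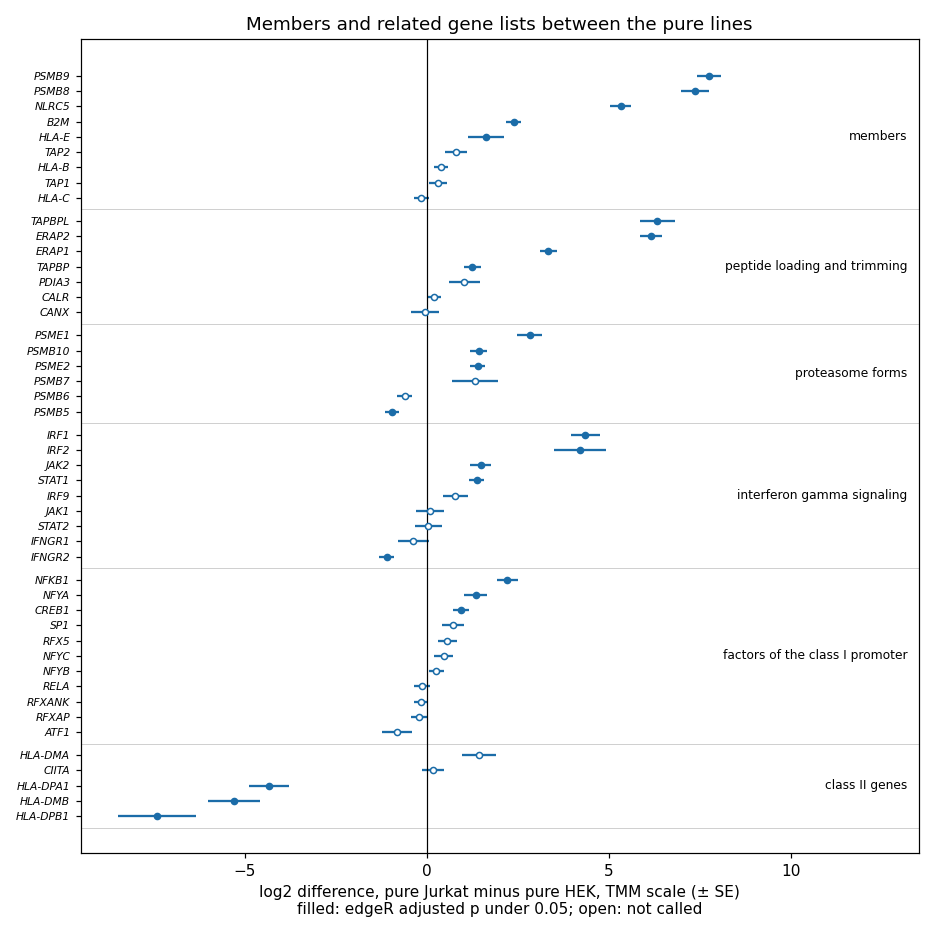
Log2 difference between pure Jurkat and pure HEK on the TMM scale (± SE) for the members and for the genes of 5 related lists that passed the filter, with filled points for an edgeR adjusted p under 0.05. PSMB9, PSMB8, TAPBPL, ERAP2 and NLRC5 lie furthest to the right, and HLA-DPB1, HLA-DMB and HLA-DPA1 furthest to the left.

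Across the 14 libraries, the gene most like each member was found by Pearson r of log2(CPM + 1), a description over libraries that share lines and depth. PSMB8 was most like CD28 (r = 0.995), a costimulatory receptor of T cells, and PSMB9 most like GIMAP1 (r = 0.994). B2M was most like FADS2 (r = 0.993), HLA-C most like SUMO3 (r = 0.987), NLRC5 most like ZNF763 (r = 0.986) and HLA-B most like ARFRP1 (r = 0.964). For TAP2 it was PNPLA6 (r = 0.939), for TAP1 IL4R (r = 0.901) and for HLA-E the unnamed gene ENSG00000227388 (r = 0.930). Among the members, PSMB9 and TAP1 had an r of 0.25 and B2M and PSMB9 one of 0.94.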

How the data were processed

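RNA-seq was analysed for 14 libraries of HEK-293T and Jurkat mixtures, 2 per condition, grouped by the labelled percentages. The authors captured mRNA on oligo-dT beads, made barcoded cDNA pooled by qPCR, aligned reads with STAR 2.6.1b to GRCh38 with ERCC sequences and deposited RSEM 1.3.1 expected counts, not normalized, and TPM per gene. The annotation release is not given in the sources used here. Replicate numbers follow accession order. The members and lists were chosen with earlier results of these data known.

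For the tests, expected counts were rounded. CPM excluded spike-ins, and the deposited TPM were rescaled over genes. Symbols came from GENCODE 44, which matched 57754 of 58440 identifiers (98.8%). Rows without a match held at most 0.327% of counts. Tests used edgeR 4.0.16 (glmQLFit, glmQLFTest, TMM, filterByExpr) in R 4.3.3, with Benjamini-Hochberg adjustment over all genes tested at 0.05. They compared the pure lines and the slope over 10 mixed libraries. For additive mixing, the expected level (at least 0.2 CPM) entered as an offset, and the deviance at the threshold of 1.5-fold was computed directly. DESeq2 1.42.0, spike-in scaling, other filters, Bonferroni adjustment, file-name groups and each library left out were alternatives. Members were all named, and of each list up to 3 called genes with the largest log2 difference, the proteasome list whole. Other genes named were chosen after their values were seen. A marker of the lists is not reported here. Intervals and floors cover counting error only. Libraries of a condition differed beyond sampling noise and were kept separate.

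The steps were tested on simulated data. For the pure lines (15484 genes), 20% of 2-fold, 84% of 4-fold and 98% of 16-fold changes were called. For the slope (17300 genes) these shares were 0%, 28% and 100%, and for additive mixing (19129 genes) 22%, 96% and 100%.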

Additional observations from a re-analysis of the deposited data

How the results depend on the processing

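Depth limits the members with few counts in HEK, which are PSMB8 and PSMB9 near the floor and NLRC5 above it. No paired analysis was possible because the labels give no replicate numbers that pair libraries across conditions. Of 5 members called between the pure lines, the count was 9 on the ERCC spike-in scale and 1 (PSMB9) with Bonferroni adjustment. Spike-in scaling turned the log2 difference to -3.15 for HLA-B, -1.93 for HLA-E, -1.18 for B2M, -3.20 for TAP1 and -2.75 for TAP2, which follows from the scale itself. The 4 members called in the mixtures became 2 within the first file-name group and 1 within the second, with fewer libraries. The slopes turned to -2.75 for HLA-B, -2.81 for HLA-C, -0.70 for HLA-E, -1.12 for B2M, -2.72 for TAP1 and -1.80 for TAP2 on the spike-in scale. The slope of TAP1 was -0.0256 with the RNA share of Jurkat as covariate and -0.51 within the first file-name group, and the cause was not tested. HLA-E gained the call of its slope with DESeq2 (adjusted p = 0.0232), with the RNA share (edgeR adjusted p = 0.0404) and without the first library at 40% HEK (edgeR adjusted p = 0.0435). B2M lost it with the RNA share (edgeR adjusted p = 0.0756) and with the libraries of a condition summed (edgeR adjusted p = 0.0714). Tested for any difference from additive mixing, 3 members passed in place of 0. With 1 library left out, the log2 difference from additive mixing ranged from -0.0797 to 0.107 for TAP1, from -0.0338 to 0.114 for TAP2, from 0.29 to 0.79 for PSMB8, from 0.15 to 0.42 for PSMB9 and from -0.94 to -0.68 for NLRC5. Over all genes, 6827 were called between the pure lines, 3194 and 3131 without the first or the second pure HEK library, 65 with Bonferroni adjustment and 15125 on the spike-in scale. In the mixtures 967 were called, 1460 by DESeq2, 512 with the file-name group as a term, 563 with libraries summed, 203 and 599 within the file-name groups, 572 without the first and 655 without the second library at 20% HEK, and 13697 on the spike-in scale. Beyond additive mixing 49 were called, 118 with shares from the spike-ins, 14 beyond 2-fold, 2896 for any difference and from 36 to 83 with 1 library left out, except 176 and 211 without the first or the second pure HEK library.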
